A study of Mus musculus with 8 samples.

Results

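The genes described here are 37 genes of DNA repair and the DNA damage response, taken from a list of gene names, among 48321 gene symbols in each count table. RNA was sequenced from 8 libraries of splenic CD8+ T cells of C57BL/6 mice, with 2 libraries in each of 4 groups. The groups were WT at day 0, KO at day 0, WT at day 5 of culture and KO at day 5 of culture. The series gives the mice as *Satb1* F/F; *E8I-cre*, that is, floxed alleles of the chromatin organiser *Satb1* and a Cre recombinase driven by a *Cd8a* enhancer that is active in peripheral CD8 lineage cells. The labels do not say which of these alleles the WT mice carried, how the cells were stimulated, the age of the mice, or whether cells were pooled, and they do not state separate cultures or animals behind replicates 1 and 2. P-values therefore measure only the spread between these libraries, which may be technical.

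Total counts assigned to genes ran from 4170126 to 11117971 per library. *Satb1* itself stood at 97.8 and 91.6 CPM (CPM being read counts relative to a library size that was scaled by the trimmed mean of M-values, TMM) in WT at day 0, 144 and 125 CPM in the day 0 libraries labelled KO, 96.5 and 116 CPM in WT at day 5, and 56.5 and 62.3 CPM in the day 5 libraries labelled KO. It was thus lower in the libraries labelled KO at day 5 (log2 fold change −0.84, FDR 0.0162) but not at day 0, where the fitted difference was upward (0.51, FDR 0.125), against the label. The day 5 call was lost without WT day 5 replicate 2, KO day 5 replicate 1 or KO day 5 replicate 2. The tables do not show which exon the reads came from, so a deleted exon could not be checked. The T cell genes *Cd3e*, *Cd8a* and *Cd8b1* ran from 568 to 4057 CPM in all libraries. *Cd4*, *Ms4a1*, *Cd14*, *Adgre1*, *Ncr1* and *Hba-a1*, which mark other blood cells, stayed below 1 CPM, whereas the B cell gene *Cd79b* read 66.7 to 164 CPM and the myeloid gene *Csf1r* 3.53 to 11.7 CPM. Of the same lists, *Itgam* reached 5.20, *Lyz2* 3.39, *Zbtb7b* 2.47 and *Cd79a* 2.26 CPM in their highest library.

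Cells repair a double-strand break in DNA either by homologous recombination, which copies the sister chromatid and so works in cells that are replicating, or by end joining, which rejoins the ends directly and works in any phase of the cell cycle. The Fanconi anaemia pathway removes crosslinks between the strands at stalled replication forks, and base excision, nucleotide excision and mismatch repair correct damage to single bases, bulky lesions and copying errors. The kinases ATM and ATR sense breaks and stalled forks and signal through CHK2 and CHK1 to p53. T cells leave the spleen in a resting state and divide rapidly once activated, and end joining has an earlier role in lymphocytes, where it closes the breaks made during antigen receptor gene rearrangement.

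The promoter sequences of 4 members are given because they stand at the ends of the response to culture described further on. They come from RefSeq (GRCm38.p6), cover 250 bases before and 50 bases after the transcription start, and are written 5′ to 3′ on the strand of the gene. A promoter was found in that collection for 31 of the 37 members, and *Prkdc*, *Exo1*, *Nbn*, *Fancd2*, *Rad50* and *Xpc* had no entry. *Brip1*, *Rad54l* and *Chek1* had the largest mean rise of the 31, and *Lig4* the largest fall. Capitals mark the CCAAT box (CCAAT on either strand).
Brip1 (chr11:86201144-86201443, minus strand): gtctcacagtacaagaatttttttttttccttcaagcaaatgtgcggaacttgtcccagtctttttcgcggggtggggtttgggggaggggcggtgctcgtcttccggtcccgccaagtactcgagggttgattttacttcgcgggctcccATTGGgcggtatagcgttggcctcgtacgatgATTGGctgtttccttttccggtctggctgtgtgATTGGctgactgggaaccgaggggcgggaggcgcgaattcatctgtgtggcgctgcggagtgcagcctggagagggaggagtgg
Rad54l (chr4:116123641-116123940, minus strand): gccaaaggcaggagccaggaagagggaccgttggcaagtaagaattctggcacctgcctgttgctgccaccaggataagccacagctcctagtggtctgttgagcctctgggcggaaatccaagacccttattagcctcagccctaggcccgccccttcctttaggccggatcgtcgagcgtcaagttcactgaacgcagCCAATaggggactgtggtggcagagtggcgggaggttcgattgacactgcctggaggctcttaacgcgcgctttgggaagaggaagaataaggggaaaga
Chek1 (chr9:36726609-36726908, minus strand): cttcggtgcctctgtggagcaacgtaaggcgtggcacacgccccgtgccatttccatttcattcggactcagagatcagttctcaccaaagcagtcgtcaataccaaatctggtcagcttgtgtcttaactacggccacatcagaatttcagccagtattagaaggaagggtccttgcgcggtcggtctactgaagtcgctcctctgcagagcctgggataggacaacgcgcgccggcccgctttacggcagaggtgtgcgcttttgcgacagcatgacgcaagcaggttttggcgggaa
Lig4 (chr8:9977631-9977930, minus strand): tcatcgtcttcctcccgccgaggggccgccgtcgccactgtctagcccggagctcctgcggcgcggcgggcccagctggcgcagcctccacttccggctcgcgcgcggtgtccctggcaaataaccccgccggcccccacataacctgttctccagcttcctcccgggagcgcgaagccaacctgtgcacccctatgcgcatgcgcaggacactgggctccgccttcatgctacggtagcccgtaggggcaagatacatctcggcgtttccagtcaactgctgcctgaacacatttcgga

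The 3 motifs searched on both strands were the CCAAT box, the site of E2F factors (TTTCCCGC, TTTGGCGC, TTTCGCGC or TTTGCCGC), and the cell cycle homology region, CHR (TTTGAA). No searched motif overlapped another in these 4 promoters, and only CCAAT boxes were found in them. A match that ran past the end of a promoter could not be found. The *Chek1* sequence ends in gcgggaa, which begins the E2F letters GCGGGAAA (TTTCCCGC on the other strand), and its next base is not included. *Brip1* had 3 CCAAT boxes, *Rad54l* had 1, and *Chek1* and *Lig4* had none. *Rad54l* and *Lig4* each have a second start site in the collection, whose promoter is not shown, and the one nearest the annotated start of the gene was taken. Shares were counted over genes, a gene holding a motif where any of its promoters did. The E2F letters were present for 7 of 31 members (22.6%), against 427 of 8627 genes tested that have an entry (4.95%) and 704 of 27025 genes in the whole collection (2.6%). The CCAAT box was in 18 of 31 members (58.1%) against 43.1% of genes tested and 11096 of 27025 genes overall (41.1%). CHR was in 2 of 31 members, *Bard1* and *Polq* (6.45%), against 14.6% for genes tested and 20.2% overall. These are matches of letters and not binding sites. The 7 members with E2F letters were *Bard1*, *Brca2*, *Rad51c*, *Topbp1*, *Chek2*, *Xrcc6* and *Msh6*, and all 7 are among the 17 members with a promoter entry whose RNA rose over culture in both genotypes. Their matches are shown in 30-base windows with the E2F letters in capitals, and this set was chosen after the matches were seen. *Rad51c* has 2 start sites in the collection, with a match at each.
Bard1 (chr1:71103163-71103192, minus strand, first base of the match 209 bases before the start site): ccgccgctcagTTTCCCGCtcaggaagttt
Brca2 (chr5:150522442-150522471, plus strand, first base of the match 168 bases before the start site): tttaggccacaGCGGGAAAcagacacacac
Chek2 (chr5:110839820-110839849, plus strand, first base of the match 152 bases before the start site): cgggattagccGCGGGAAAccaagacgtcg
Msh6 (chr17:87975054-87975083, plus strand, first base of the match at base 16 after the start site): ctcctcccgacTTTCCCGCcagcggcggcc
Rad51c (chr11:87404477-87404506, minus strand, first base of the match at base 12 after the start site): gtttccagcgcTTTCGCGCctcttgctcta
Rad51c (chr11:87404941-87404970, minus strand, first base of the match 5 bases before the start site): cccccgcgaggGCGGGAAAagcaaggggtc
Topbp1 (chr9:103305187-103305216, plus strand, first base of the match 129 bases before the start site): ccgctcggttgGCGCGAAAgtcggttcccg
Xrcc6 (chr15:82016312-82016341, plus strand, first base of the match 46 bases before the start site): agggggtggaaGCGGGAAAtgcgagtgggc

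The genes at the ends of the response lie apart in the genome. In GENCODE M21 (GRCm38), *Fancd2* spans chr6:113531682-113597017, *Exo1* chr1:175880581-175913489, *Brip1* chr11:86058138-86201193, *Rad54l* chr4:116094264-116123690 and *Chek1* chr9:36708482-36727065. *Atm* spans chr9:53439149-53536740, *Prkdc* chr16:15637866-15842235 and *Lig4* chr8:9969049-9977686. Reads were counted over the exons of each gene as a whole.

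Over culture, 21 of the 37 members rose and 4 fell in WT, and 22 rose and 4 fell in the libraries labelled KO (edgeR quasi-likelihood test, FDR under 0.05). All 37 passed the filter on low counts. Of the 12597 genes tested, 24.7% were called higher and 23.6% lower in WT, and 26.2% were called higher and 24.0% lower in KO, so the members were called higher at 56.8% and 59.5% and lower at 10.8% in each genotype. The median log2 fold change of the members was 0.90 in WT and 0.89 in KO, beside −0.04 and −0.05 over all genes tested. Scaling by library totals alone moved the median of all genes to −0.17 in WT and −0.23 in KO, and the members' counts were then 19 higher in each genotype with 5 lower in WT and 4 in KO. The WT and KO comparisons share no library, but both come from the same fit. The spread behind their calls was estimated from all 8 libraries together, so the 2 sets of calls are not independent. Of the members, 20 were called higher in both, 3 lower in both, 2 in WT only, 3 in KO only and 9 in neither. The share of all genes called in both genotypes is not reported here. A call in 1 genotype and not in the other does not show a difference between them, which is taken up with the interaction.

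The same cultures raised every one of 15 proliferation genes in both genotypes, with their summed level going from 425 and 487 CPM in WT at day 0 to 6914 and 6553 CPM at day 5, and from 452 and 428 CPM to 6753 and 7134 CPM in KO. *Cd3e* and *Cd8b1* fell in both genotypes, by 0.91 and 1.64 on the log2 scale in WT. *Cd8a* fell in WT (−0.87) but was not called in KO (−0.21, FDR 0.112), and it was higher in KO than in WT at day 5 (0.60, FDR 0.0155). The summed level of 4 B cell genes, nearly all of it *Cd79b*, lay between 121 and 166 CPM at day 0 and between 67.2 and 84.1 CPM at day 5. That of 5 myeloid genes lay between 10.3 and 19.0 CPM and then between 4.06 and 5.87 CPM. The part of these movements in the changes described for repair genes was not tested. In bulk RNA, more cells expressing a gene and more RNA per cell cannot be told apart.

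**Figure D1:**
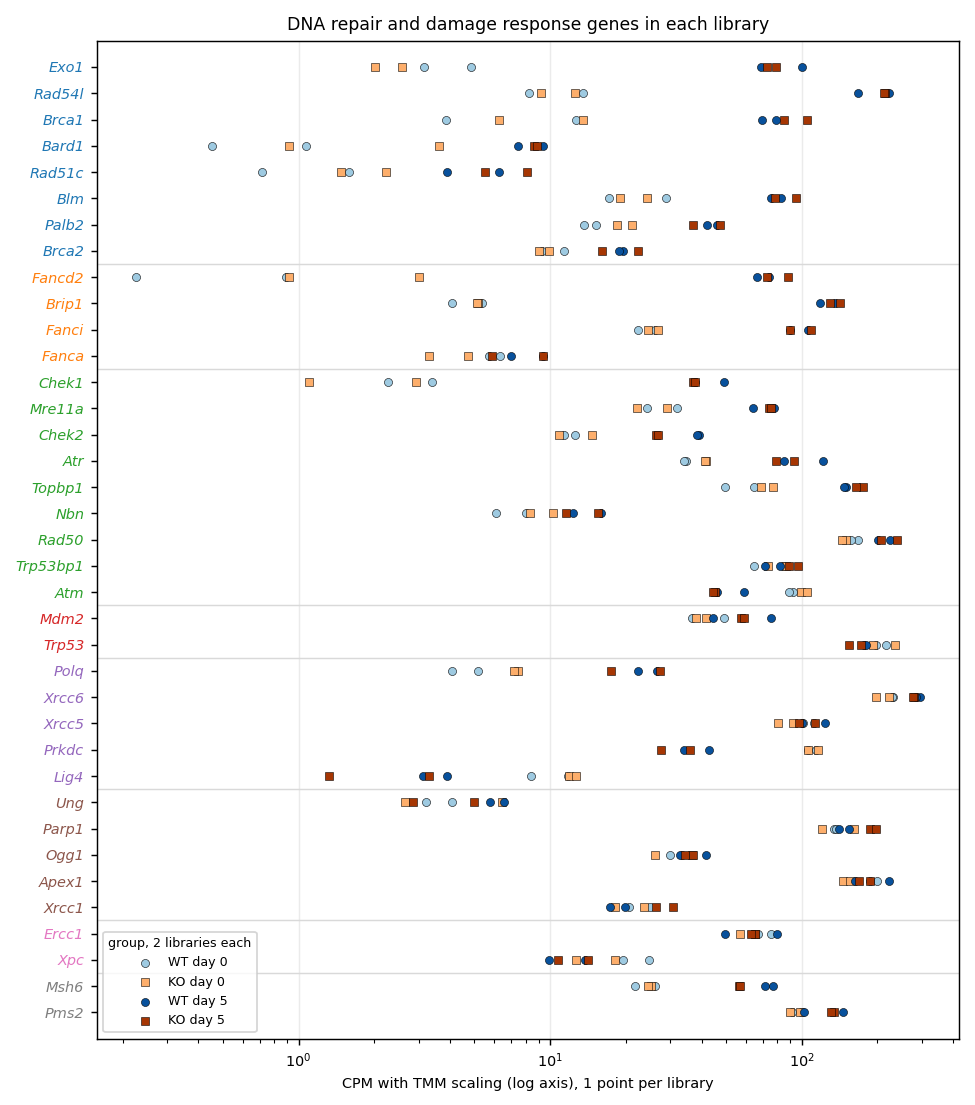
CPM of each member (log axis) in each of the 8 libraries, grouped by role, with pale symbols for day 0, dark symbols for day 5, circles for WT and squares for KO. The day 5 libraries lie far to the right of the day 0 libraries for *Exo1*, *Rad54l*, *Fancd2*, *Brip1* and *Chek1*, and to the left for *Prkdc*, *Lig4* and *Atm*.

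All 8 homologous recombination genes rose in both genotypes, with a median log2 fold change of 2.63 in WT and 1.90 in KO. Their summed level went from 67.6 and 78.0 CPM in WT at day 0 to 545 and 473 CPM at day 5, and from 86.0 and 69.7 CPM to 533 and 562 CPM in KO. *Exo1*, the exonuclease that resects broken ends, read 4.83 and 3.17 CPM in WT at day 0, 2.57 and 2.02 CPM in KO at day 0, 99.8 and 69.2 CPM in WT at day 5 and 78.9 and 73.1 CPM in KO at day 5. Its groups did not overlap between days, and its log2 fold change was 4.37 ± 0.27 in WT (SE of the model, as for every error given after a log2 fold change; n = 2 libraries per group) and 4.99 ± 0.27 in KO. The days did not overlap for 73.7% of all genes tested in WT and for 77.9% in KO. *Rad54l*, a motor protein that acts on the recombining strands, read 8.23 and 13.6 CPM in WT at day 0, 12.5 and 9.18 CPM in KO at day 0, 222 and 167 CPM in WT at day 5 and 214 and 212 CPM in KO at day 5. That is 18.1-fold higher in WT and 19.1-fold higher in KO, with every day 5 library above every day 0 library. Of the exon length of *Rad54l*, 15.4% is shared with *Lrrc41* on the opposite strand, and the strand setting of the counting is not given in the sources used here.

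*Brca1*, the tumour suppressor that directs broken ends to recombination, read 12.7 and 3.84 CPM in WT at day 0, 13.6 and 6.24 CPM in KO at day 0, 69.5 and 78.8 CPM in WT at day 5 and 85.3 and 105 CPM in KO at day 5. In each genotype the 2 day 0 libraries differed from each other by more than the day 5 libraries did in proportion, replicate 1 being the higher, and the log2 fold changes were 3.11 ± 0.40 and 3.18 ± 0.37. They were 4.27 without WT day 0 replicate 1 and 3.93 without KO day 0 replicate 1. *Bard1*, its obligate partner, was scarce at day 0, with 6 and 2 reads in WT and 42 and 5 in KO. Its levels were 1.07 and 0.452 CPM in WT at day 0, 3.60 and 0.918 CPM in KO at day 0, 9.35 and 7.47 CPM in WT at day 5 and 8.65 and 8.90 CPM in KO at day 5. The day 5 libraries of *Bard1* were alike in both genotypes, whereas the 2 day 0 libraries labelled KO differed widely from each other. Its log2 fold change of 3.38 in WT was 4.17 without WT day 0 replicate 1, and that of 1.80 in KO was 3.23 without KO day 0 replicate 1. Of the remaining members of this role, *Rad51c*, a recombination factor, rose by a log2 fold change of 2.15 and 1.81 in WT and KO, *Blm*, the Bloom syndrome helicase, by 1.79 and 1.99, *Palb2*, which bridges BRCA1 and BRCA2, by 1.62 and 1.10, and *Brca2*, a tumour suppressor of the same route, by 0.90 and 1.03. The calls of *Brca2* and *Rad51c* were lost without WT day 0 replicate 1 in WT (FDR 0.0775 and 0.0703), where the change of *Rad51c* was 2.78 without WT day 0 replicate 2, and without KO day 5 replicate 1 in KO (FDR 0.0629 and 0.0671).

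Of the 4 Fanconi anaemia genes, 3 rose in both genotypes and *Fanca*, a subunit of the core complex, was called in neither. *Fancd2*, which the pathway ubiquitinates to mark the crosslink, had the largest fitted change of all members in both genotypes, although in KO it fell behind *Exo1* without KO day 0 replicate 2. It read 0.894 and 0.226 CPM in WT at day 0 (5 and 1 reads), 3.002 and 0.918 CPM in KO at day 0, 73.9 and 66.3 CPM in WT at day 5 and 72.7 and 88.0 CPM in KO at day 5. The log2 fold change was 6.83 ± 0.44 in WT and 5.15 ± 0.33 in KO. It rested on the few reads at day 0, since it was 8.16 without WT day 0 replicate 1 in WT, and 6.43 without KO day 0 replicate 1 in KO. *Brip1*, the helicase partner of BRCA1, read 5.37 and 4.07 CPM in WT at day 0, 5.15 and 5.14 CPM in KO at day 0, 135 and 118 CPM in WT at day 5 and 130 and 143 CPM in KO at day 5. Its change over culture differed least between the genotypes of all members, with 26.5-fold and 26.4-fold higher levels at day 5. *Fanci*, the partner of FANCD2, rose 4.04-fold and 3.85-fold, although 16.0% of its exon length is shared with *Polg* on the opposite strand. *Fanca* had log2 fold changes of 0.45 ± 0.36 and 0.89 ± 0.35 (FDR 0.324 and 0.0531). The KO change passed the threshold in 5 alternatives, among them DESeq2 size factors, thinning to equal depth and leaving out KO day 5 replicate 2, with FDR from 0.0162 to 0.391 over all of them. *Fanca* shares 10.5% of its exon length with *Zfp276*.

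Among the 9 genes that sense breaks and stalled forks and signal to the cell cycle, 7 rose and 1 fell in WT, and 6 rose and 1 fell in KO. *Chek1*, the effector kinase of ATR, read 3.40 and 2.26 CPM in WT at day 0, 2.92 and 1.10 CPM in KO at day 0, 49.2 and 37.6 CPM in WT at day 5 and 36.97 and 37.5 CPM in KO at day 5. Its rise of 15.02-fold and 16.5-fold was the largest of this role, and the KO log2 fold change of 4.04 was 5.06 without KO day 0 replicate 1. *Chek2*, the effector kinase of ATM, read 12.5 and 11.3 CPM in WT at day 0, 14.7 and 10.8 CPM in KO at day 0, 39.2 and 38.3 CPM in WT at day 5 and 26.3 and 26.9 CPM in KO at day 5. The rise of *Chek2* was 3.24-fold in WT and 2.05-fold in KO, and the WT libraries were the higher ones at day 5. *Atr* rose by 1.59 and 1.05 on the log2 scale (1.97 in KO once exon length and GC content were corrected for), and *Topbp1*, its activator, by 1.38 and 1.21.

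*Atm*, by contrast with *Atr*, was lower at day 5. It read 91.9 and 89.1 CPM in WT at day 0, 98.9 and 105 CPM in KO at day 0, 46.0 and 58.8 CPM in WT at day 5 and 45.1 and 44.3 CPM in KO at day 5. All 4 day 5 libraries lay below all 4 day 0 libraries, and the log2 fold change was −0.79 ± 0.16 (FDR 0.00111) in WT and −1.19 ± 0.15 (FDR 4.26e-05) in KO. The complex of RAD50, MRE11 and NBS1 binds broken ends and recruits ATM. *Mre11a* rose by 1.34 and 1.53 on the log2 scale, *Rad50* by 0.39 and 0.60, and *Nbn* by 0.99 in WT, with 0.56 in KO that was not called (FDR 0.112). The WT call of *Rad50* was lost with library totals, with no filter on low counts, with an offset for GC content and exon length, and without WT day 0 replicate 1, WT day 0 replicate 2 or WT day 5 replicate 2. That of *Nbn* was lost with the same offset and without WT day 0 replicate 2 or WT day 5 replicate 1, with FDR of at most 0.135 for *Rad50* and 0.0988 for *Nbn*. *Trp53bp1*, which protects ends from resection, had log2 fold changes of 0.05 ± 0.17 and 0.21 ± 0.16 and was not called. It shares 15.04% of its exon length with *Tubgcp4*.

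The 5 end joining genes were split, with 2 higher and 2 lower in each genotype. *Prkdc* encodes the catalytic subunit of DNA-PK, the kinase that holds the broken ends. It read 106 and 114 CPM in WT at day 0, 116 and 106 CPM in KO at day 0, 42.7 and 34.0 CPM in WT at day 5 and 36.1 and 27.5 CPM in KO at day 5. The log2 fold change was −1.51 ± 0.17 in WT and −1.81 ± 0.18 in KO, and no day 5 library reached a day 0 library. *Lig4*, the ligase that seals the joint, read 8.41 and 11.8 CPM in WT at day 0, 11.9 and 12.7 CPM in KO at day 0, 3.88 and 3.13 CPM in WT at day 5 and 3.31 and 1.33 CPM in KO at day 5. It fell by 1.496 ± 0.39 and 2.39 ± 0.40 on the log2 scale, on 7 to 22 reads per day 5 library, and without WT day 0 replicate 2 the WT call was lost (FDR 0.0595). Without KO day 5 replicate 1 the KO log2 fold change was −3.18.

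The Ku subunits, which cap broken ends, were not called lower. *Xrcc6* (Ku70) read 231 and 228 CPM in WT at day 0, 197 and 223 CPM in KO at day 0, 296 and 284 CPM in WT at day 5 and 278 and 278 CPM in KO at day 5. The change was small at 1.26-fold and 1.33-fold, with every day 5 library above every day 0 library. A gap between days was common, at 73.7% of all genes tested in WT and 77.9% in KO. Its FDR was 0.0311 and 0.0116, and it missed the threshold in both genotypes when library totals alone were used for scaling. The *Xrcc6* call was also lost in WT without any of WT day 0 replicate 1, WT day 0 replicate 2, WT day 5 replicate 1, KO day 5 replicate 1 or KO day 5 replicate 2, and in KO without KO day 0 replicate 1, KO day 5 replicate 1 or KO day 5 replicate 2 (FDR at most 0.178 and 0.113). *Xrcc5* (Ku80) had log2 fold changes of 0.08 ± 0.15 and 0.27 ± 0.15 and was not called. *Polq*, the polymerase of the alternative, microhomology-based end joining route, rose 5.21-fold and 3.04-fold. The summed level of the 5 genes was 462 and 459 CPM in WT at day 0 and 489 and 448 CPM at day 5.

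**Figure D2:**
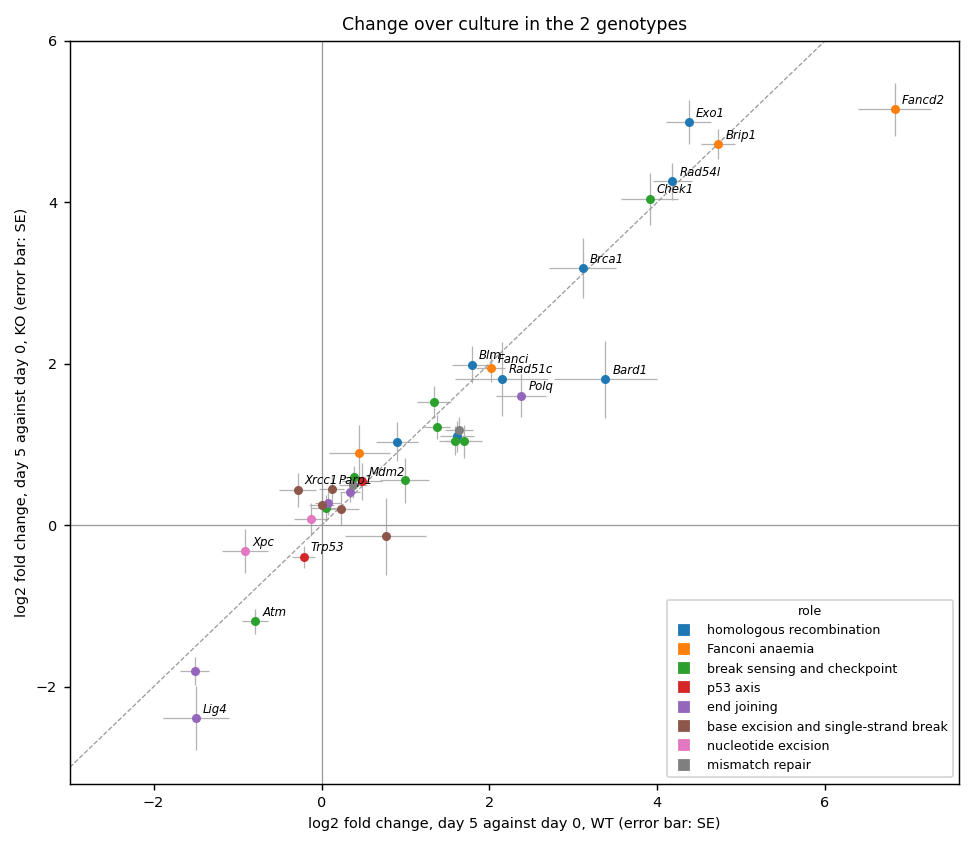
Log2 fold change from day 0 to day 5 in WT (horizontal) and KO (vertical) for the 37 members, with SE bars, colour for role and a dashed line of equal change. Homologous recombination genes and *Fancd2*, *Fanci* and *Brip1* lie at the upper right, base excision genes near 0, and *Prkdc*, *Lig4* and *Atm* at the lower left.

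The p53 pair moved little. *Trp53*, the damage-activated transcription factor, read 217 and 197 CPM in WT at day 0, 235 and 193 CPM in KO at day 0, 177 and 180 CPM in WT at day 5 and 154 and 173 CPM in KO at day 5. The log2 fold change was −0.21 ± 0.13 in WT (FDR 0.214), where scaling by library totals brought it past the threshold (FDR 0.0440), and −0.39 ± 0.13 in KO (FDR 0.0284). The KO call was lost without KO day 0 replicate 1, KO day 5 replicate 1 or KO day 5 replicate 2 (FDR at most 0.274). *Mdm2*, the ubiquitin ligase that degrades p53 and is itself a p53 target, read 36.7 and 49.1 CPM in WT at day 0, 38.1 and 41.7 CPM in KO at day 0, 44.3 and 75.7 CPM in WT at day 5 and 57.2 and 58.9 CPM in KO at day 5. WT overlapped between days, KO did not, and neither was called (FDR 0.111 and 0.0662), although DESeq2 called the KO change (FDR 0.0497).

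Of the 5 base excision and single-strand break genes, 1 was called, in KO alone. *Parp1*, which detects single-strand breaks, read 135 and 137 CPM in WT at day 0, 161 and 120 CPM in KO at day 0, 155 and 140 CPM in WT at day 5 and 187 and 198 CPM in KO at day 5. Its log2 fold change was 0.12 ± 0.15 in WT and 0.45 ± 0.15 in KO (FDR 0.0223), and the KO call was lost with library totals and without KO day 0 replicate 2, KO day 5 replicate 1 or KO day 5 replicate 2 (FDR at most 0.187). *Xrcc1*, the scaffold of single-strand break repair, read 20.6 and 24.9 CPM in WT at day 0, 23.5 and 18.2 CPM in KO at day 0, 19.8 and 17.4 CPM in WT at day 5 and 26.3 and 30.7 CPM in KO at day 5. It was not called in WT (−0.28 ± 0.22) or in KO (0.44 ± 0.21). *Apex1*, the endonuclease that cuts at sites without a base, read 198 and 187 CPM in WT at day 0, 145 and 155 CPM in KO at day 0, 222 and 163 CPM in WT at day 5 and 187 and 169 CPM in KO at day 5. However, 61.7% of the exon length of *Apex1* is shared with *Pip4p1* on the opposite strand, so reads of the 2 genes may not be separated. The glycosylases *Ogg1* and *Ung*, which remove oxidised guanine and uracil, had log2 fold changes of 0.23 and 0.20, and 0.77 and −0.14, with SE up to 0.48 for *Ung*, and were not called.

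The nucleotide excision and mismatch roles have 2 members each. *Xpc*, which recognises bulky lesions, read 19.5 and 24.6 CPM in WT at day 0, 18.1 and 12.7 CPM in KO at day 0, 9.88 and 13.7 CPM in WT at day 5 and 14.2 and 10.8 CPM in KO at day 5. It fell in WT (−0.91 ± 0.28, FDR 0.0165) and was not called in KO (−0.32 ± 0.27), where the days overlapped. Without WT day 0 replicate 2 or WT day 5 replicate 1 the WT call of *Xpc* was lost (FDR at most 0.149), and leaving out WT day 0 replicate 2 left 2 members called lower in WT. *Ercc1*, a subunit of the nuclease that cuts out the lesion, had log2 fold changes of −0.12 and 0.07 and was not called. *Msh6*, which recognises mismatches, rose 3.11-fold in WT and 2.27-fold in KO. *Pms2*, a nuclease of this route, was called in KO (0.50 ± 0.16, FDR 0.0233) and not in WT (0.38 ± 0.17, FDR 0.0798), and the KO call was lost with library totals and without KO day 0 replicate 1, KO day 5 replicate 1 or KO day 5 replicate 2 (FDR at most 0.108).

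**Figure D3:**
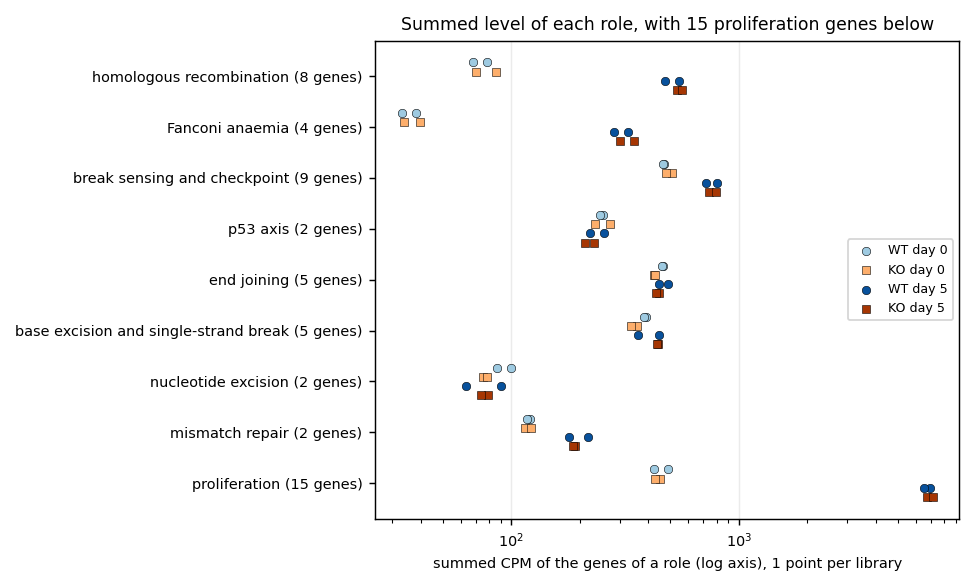
Summed CPM (log axis) of the genes of each role in each library, with 15 proliferation genes in the bottom row. Homologous recombination and Fanconi anaemia genes shift to the right at day 5 in both genotypes (6.99-fold and 8.52-fold in WT), while p53, end joining and nucleotide excision genes do not.

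Per kb of exon, which allows levels of different genes to be compared, the members covered a wide range. In WT at day 0 *Apex1*, *Xrcc6*, *Trp53* and *Xrcc5* were the most abundant, at 135, 51.2, 51.2 and 41.8 CPM per kb, and *Fancd2* and *Bard1* the least, at 0.0706 and 0.135 CPM per kb. The place of *Apex1* is uncertain, since 61.7% of its exon length is shared with *Pip4p1*. At day 5 in WT *Rad54l* stood at 25.2 CPM per kb, close to *Parp1* at 27.9, whereas at day 0 the same genes stood at 1.41 and 25.7 CPM per kb. *Fancd2*, *Brip1*, *Fanci* and *Exo1* then read 8.83, 17.0, 17.0 and 10.03 CPM per kb. *Lig4* was the least abundant member at day 5 in both genotypes, with 0.674 and 0.446 CPM per kb.

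The comparison of KO with WT asks whether loss of *Satb1* goes with another level of these genes. In edgeR's quasi-likelihood test none of the 37 members was called between genotypes at day 0, at day 5 or in the interaction, where 1.80%, 1.63% and 0.159% of all genes tested were called. DESeq2 also called 0 members in each of the 3 comparisons. Without the adjustment, 6 members at day 0, 4 at day 5 and 3 in the interaction had p under 0.05 (16.2%, 10.8% and 8.11%, beside 13.8%, 14.1% and 12.4% of all genes tested), and the lowest FDR of a member was 0.209, 0.203 and 0.355. The libraries labelled KO at day 0 did not have less *Satb1* RNA, so the day 0 comparison is one of labels. The median log2 fold change of the members was 0.05 at day 0 and −0.04 at day 5.

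The intervals of these differences were not equally narrow. At day 0 the 95% interval lay within 2-fold in either direction for 25 members, and at day 5 for 31. For the remaining 12 and 6 members a difference of more than 2-fold was within the interval, and these include the scarce genes *Bard1*, *Rad51c*, *Ung* and *Lig4*. A change of 1.5-fold either way lay outside the interval for 13 members at day 0 and 17 at day 5. For the interaction, 21 members had an interval within 2-fold and 16 had one that reached past it. Only 2 members had an interaction interval within 1.5-fold.

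At day 0 the members with the lowest p were *Fancd2*, *Bard1* and *Apex1*. *Fancd2* was fitted 1.87 ± 0.65 higher on the log2 scale in the libraries labelled KO (95% interval 0.47 to 3.28, FDR 0.209), but the lower KO library, at 0.918 CPM, was close to the higher WT library, at 0.894 CPM. It passed the threshold only when genes with low counts were kept in the fit (FDR 0.0368), and over all alternatives its FDR ran up to 0.849. *Bard1* had a difference of 1.63 ± 0.66 (FDR 0.295), with the lower KO library below the higher WT library. *Apex1* had a difference of −0.36 ± 0.15 (FDR 0.305), with both libraries labelled KO below both WT libraries. The genotypes did not overlap for 43.4% of all genes tested at day 0 and for 45.6% at day 5.

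At day 5 the lowest p belonged to *Xrcc1*, *Chek2* and *Parp1*. *Xrcc1* was fitted 0.61 ± 0.22 higher in KO (95% interval 0.14 to 1.08, FDR 0.203) and *Parp1* 0.38 ± 0.15 higher (0.06 to 0.70, FDR 0.254), and *Chek2* was 0.54 ± 0.20 lower (−0.97 to −0.11, FDR 0.222). None of the 3 passed the adjusted threshold. The interaction, the difference between genotypes of the change over culture, was −1.68 ± 0.70 for *Fancd2* (FDR 0.355), 0.72 ± 0.30 for *Xrcc1* (FDR 0.359) and −0.66 ± 0.30 for *Chek2* (FDR 0.386). Hence no difference in the response to culture was called for any member, and that includes the 5 that were called in 1 genotype alone.

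**Figure D4:**
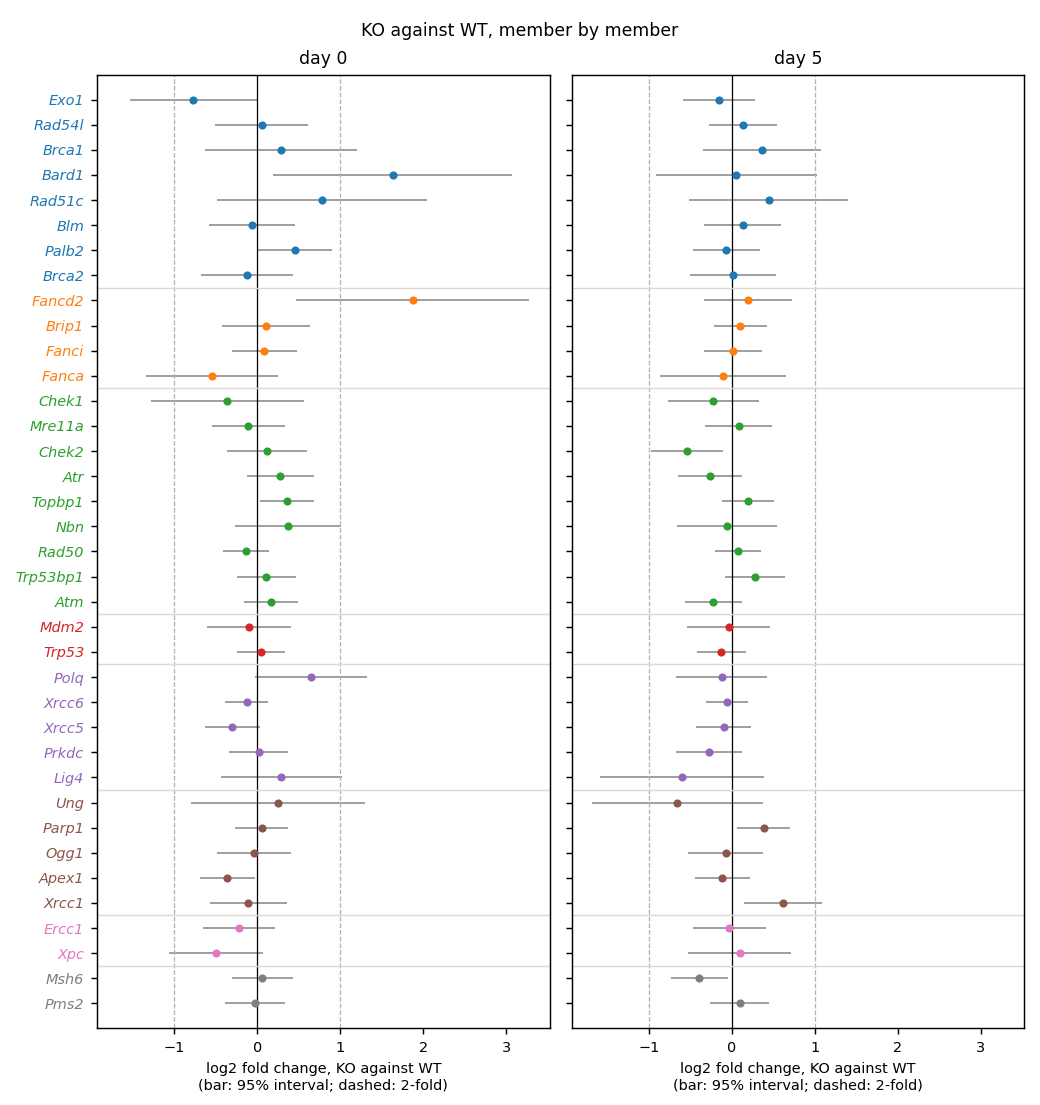
Log2 fold change of KO against WT at day 0 (left) and day 5 (right) for the 37 members, with 95% intervals and dashed lines at 2-fold. Most points lie near 0, and the widest intervals are those of *Fancd2* and *Bard1* at day 0.

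A further 91 genes of the same pathways and p53 targets were examined, of which 87 were tested and *Fancf*, *Bbc3*, *Gadd45a* and *Neil2* were too scarce. In WT 32 of the 87 rose and 12 fell over culture (36.8% and 13.8%, beside 24.7% and 23.6% of all genes tested), and in KO 37 rose and 12 fell (42.5% and 13.8%, beside 26.2% and 24.0%). Their median log2 fold changes were 0.19 and 0.44, and the counts of the smaller lists that follow are read against the same shares of all genes. Of 14 other homologous recombination genes 10 rose and 1 fell in WT and 11 rose in KO. The largest rises were those of *Rad54b*, a relative of *Rad54l*, with 5.68 ± 0.26 in WT, and of *Gen1*, the resolvase of crossed strands, with 5.15 ± 0.43 (4.37 without WT day 0 replicate 1 and 6.45 without WT day 0 replicate 2), whereas *Mus81*, another junction nuclease, fell by 1.44 ± 0.27. *Rad54b* shares 35.9% of its exon length with other genes, *Fsbp* among them. Of 9 other Fanconi anaemia genes 4 rose in each genotype, led by the ubiquitin-conjugating enzyme *Ube2t* at 2.81 ± 0.29 and *Fancb* at 2.05 ± 0.25 in WT.

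Among 13 other sensing and checkpoint genes, 5 rose and 1 fell in WT and 4 rose and 1 fell in KO. *Clspn*, the adaptor through which ATR reaches CHK1, rose by 3.14 ± 0.28 in WT, *Wee1*, the inhibitory kinase of CDK1, by 2.97 ± 0.40, and *Mdc1*, the mediator bound at broken ends, fell by 1.27 ± 0.21. Of 6 other end joining genes *Aplf*, a scaffold for the ligase complex, rose by 1.05 ± 0.24 and was the only one called in WT, and 1 rose and 1 fell in KO. Of 14 other base excision genes 4 rose and 2 fell in WT and 5 rose and 1 fell in KO. *Neil3*, a glycosylase of replicating DNA, went from 2 reads in the 2 WT libraries at day 0 to 2006 at day 5, a ratio of 1025 after scaling (exact 95% counting interval 283 to 8466). *Lig1*, the replicative ligase, rose by 3.82 ± 0.17 in WT, while *Lig3*, which seals single-strand breaks, fell by 0.63 ± 0.16. *Lig3* lost its WT call without WT day 0 replicate 1 and shares 25.1% of its exon length with *Rffl*.

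Of 12 other nucleotide excision genes 1 rose and 3 fell in WT and 2 rose and 4 fell in KO. The share that fell in WT, 25%, was near the 23.6% of all genes tested, and the share in KO was 33.3% beside 24.0%. The damage sensor partner *Rad23b* rose by 0.58 ± 0.19 in WT, and the nuclease subunit *Ercc4* and the transcription-coupled repair factor *Ercc6* fell by 1.27 ± 0.24 and 1.22 ± 0.26. Of 5 other mismatch repair genes *Pms1* rose by 0.73 ± 0.17 in WT, *Msh3* and *Mlh3* fell by 0.88 ± 0.21 and 0.79 ± 0.23, and the counts were likewise 1 higher and 2 lower in KO. The WT call of *Rad23b* was lost in DESeq2, with library totals and without WT day 0 replicate 1, WT day 0 replicate 2 or WT day 5 replicate 1, and that of *Mlh3* without WT day 0 replicate 2 or WT day 5 replicate 1.

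Of 14 p53 targets tested, 6 rose and 3 fell in WT, and 9 rose and 3 fell in KO. *Cdkn1a*, the inhibitor of cyclin-dependent kinases, went from 0.179 and 0.226 CPM in WT at day 0 to 227 and 202 CPM at day 5, that is from 2 reads to 2127, a ratio of 1086 (exact 95% counting interval 300.4 to 8976). In KO it went from 0.429 and 0.184 CPM to 349 and 380 CPM. *Plk2*, a stress-induced kinase, rose by 4.16 ± 0.58 in WT (from 3.29 to 5.65 when any one WT library was left out), and *Btg2*, an antiproliferative gene, and *Sesn1*, a stress sensor, fell by 1.96 ± 0.12 and 1.80 ± 0.16.

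Between genotypes, 3 of the 87 genes were called at day 0 and 3 at day 5, each time 2 higher (2.3%) and 1 lower (1.15%) in KO. Of all genes tested, 0.91% were called higher and 0.89% lower at day 0, and 1.31% higher and 0.32% lower at day 5. At each day 15 of the 87 had an unadjusted p under 0.05 (17.2%, beside 13.8% and 14.1% of all genes tested). In the interaction edgeR called 0 (11 with an unadjusted p under 0.05, or 12.6%, beside 12.4% of all genes tested), while DESeq2 called 1, *Clspn*. At day 0 *Clspn* was lower in the libraries labelled KO (−1.78 ± 0.38, FDR 0.0357, and −2.87 without KO day 0 replicate 1) and *Btg2* was higher (0.52 ± 0.12, FDR 0.0449). *Neil3* was also higher there, with 24 reads against 2, a ratio of 7.03 (FDR 0.0445 in edgeR, exact 95% counting interval 1.74 to 61.3). At day 5 *Cdkn1a* was 0.76 ± 0.13 higher in KO (FDR 0.0131), *Ddb1*, a subunit of a damage-binding ubiquitin ligase, was 0.58 ± 0.12 higher (FDR 0.0282), and *Xrcc4*, the partner of LIG4, was 0.71 ± 0.15 lower (FDR 0.0349). *Xrcc4* read 69.1 and 74.7 CPM in WT and 46.0 and 41.8 CPM in KO at day 5. These calls depended on single libraries. That of *Cdkn1a* was lost without WT day 5 replicate 2, KO day 5 replicate 1 or KO day 5 replicate 2, and so were those of *Ddb1* and *Xrcc4*, which were lost without either WT day 0 library as well, and *Xrcc4* also without WT day 5 replicate 1. The day 0 calls of *Btg2* and *Neil3* were lost without any library of day 0 or of KO at day 5, and that of *Clspn* without any of these except KO day 0 replicate 1. DESeq2 did not call *Neil3* at day 0, and it additionally called *Mus81* lower in KO at day 0 (FDR 0.0422) and *Parp2* lower in KO at day 5 (FDR 0.0313), which edgeR did not (FDR 0.0702 and 0.0851).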

How the data were processed

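RNA of 8 libraries of splenic CD8+ T cells was sequenced from an NEBNext Ultra RNA kit, per the labels. The authors deposited 1 table of raw counts for every library, with a row per gene symbol, neither normalized nor pooled. The submitters' processing notes name HISAT2 2.1.0, HTSeq 0.11.1 and mm10. Which annotation was counted, and with what strand setting, is not given in the sources used here. In each library 21.2% to 24.5% of all reads counted by the program were assigned to a gene, and 31.8% to 37.4% were set aside as aligned to more than 1 place. Those summary lines, 75.5% to 78.8% of the total, stayed out of library sizes and tests.

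Groups came from the labels. All 8 libraries entered one edgeR 4.0.16 quasi-likelihood fit (R 4.3.3) with a mean per group, TMM factors and the default filter (minimum count 10), which left 12597 genes and 4 residual degrees of freedom. P-values were two-sided and adjusted by Benjamini-Hochberg (FDR) over those genes, and FDR under 0.05 was called. The procedure was tested on simulated data. The members, their roles, the other lists and the tests were chosen with earlier results of these data known. Values in every library are given for the 5 members with the largest and the 5 with the lowest mean change over culture, for the 3 with the lowest p in each comparison of genotypes and in the interaction, and for *Brca1*, *Atm*, *Trp53*, *Mdm2*, *Xrcc6* and *Parp1*. For the other lists, up to 2 called changes in each direction in WT are named, and every gene called between genotypes, the latter chosen after their values were seen. One further gene that this rule selects is not reported here.

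Exon overlap, length and GC content came from GENCODE M21, in which 46996 of 48321 symbols were found. Intervals on ratios of few reads are exact binomial intervals at 95%, which hold counting error alone because no molecular identifiers are named in the labels. Alternatives were DESeq2 1.42.0, other scaling and filters, a fit of 4 libraries alone, a replicate block, an offset for GC content and length, thinning to 4170126 reads, members sharing under 10% of exon length, and leaving out each library.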

Additional observations from a re-analysis of the deposited data

How the results depend on the processing

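No member called over culture in the main test changed direction in any alternative that was run. The count of members called ran from 20 to 25 in WT and from 20 to 27 in KO when 1 library was left out, and from 23 to 25 and from 23 to 28 under the other settings. Of the 25 members called in WT 18 were called in every alternative, and of the 26 in KO 20 were. Another 3 members were called in at least 1 alternative in WT (*Trp53*, *Mdm2* and *Pms2*) and 3 in KO (*Fanca*, *Mdm2* and *Trp53bp1*). Leaving out 1 library gave 2 to 4 members lower in WT, the 2 without WT day 0 replicate 2, and 17 to 21 higher. In KO it gave 17 to 23 higher and 3 to 4 lower. Between genotypes at day 0, 1 member, *Fancd2*, was called (higher, 1) when low-count genes were kept in the fit, and in the other settings 0 were.

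Replicate numbers 1 and 2 are shared between groups, but the labels do not tie them to an animal, litter or day. The correlation of same-numbered libraries' deviations was 0.12 (WT, both days), 0.23 (KO, both days), 0.0044 (day 0) and −0.017 (day 5), over 2 pairs each, which is too few to show a pairing, and the main test has no block. With a replicate block, 25 members were called over culture in WT and 28 in KO, and 0 between genotypes or in the interaction. *Fancd2* and *Bard1* had 1 to 42 reads per day 0 library, so their day 0 levels rest on few reads.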
